A study of Mus musculus with 4 samples.

Results

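The transcriptome of epiblast-like cells (EpiLCs) was compared with that of the mouse embryonic stem cells (ESCs) they were derived from, over all genes with a level of at least 1 TPM, the share of transcripts corrected for gene length, in either library. Of 24421 gene entries in the deposited table, 13535 met this limit, and they are called measured genes below. Polyadenylated RNA of a single wild type mouse line, R1, was sequenced as 4 libraries, each of a different condition. The ESC culture was kept in serum medium with 1000 U/mL leukemia inhibitory factor (LIF), and by the study's methods it also received the MEK inhibitor PD0325901 and the GSK3 inhibitor CHIR99021 for the day before collection, which the label of that library does not name. By the same methods, the mouse embryonic fibroblasts that served as feeders were removed before that day, for ESCs as for EpiLCs. For EpiLCs, the cells spent a day with 1 μM PD0325901, 3 μM CHIR99021 and LIF, and LIF was then withdrawn. Medium with 20% knockout serum replacement, 30 ng/mL fibroblast growth factor 2 (FGF2) and 0.6 μM of a JAK inhibitor followed until collection at 72 h. The remaining libraries came from ESCs given DMSO, or 10 μM of the PRC2 inhibitor EED226, for 48 h in ESC medium with LIF. The medium, the time in culture and the cell state differ together between ESCs and EpiLCs and cannot be told apart. The tables count 47622558 reads in ESCs, 34440050 in EpiLCs, and 38863803 and 46789589 with DMSO and EED226.

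EpiLCs are obtained when naive ESCs leave the state that LIF and the inhibitors hold and enter a formative state that resembles the epiblast shortly after implantation. At that stage the epiblast becomes a polarized epithelium on a basement membrane, FGF signals through ERK, and DNA methylation and metabolism are remodelled. FGF and serum signals act on immediate early genes, through ternary complex factors and serum response factor (SRF), which binds a motif called the CArG box.

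No condition was replicated, so no p-value is given. A gene is called higher or lower where the ratio of its levels, after 0.1 TPM was added to each, was at least 2-fold, which is 1 or −1 on the log2 scale. Brackets of a ratio are exact 95% binomial intervals that cover counting error only, and they say nothing of the spread between cultures. At this threshold 3946 genes, 29.2% of those measured, were higher in EpiLCs and 1572, or 11.6%, were lower. With 10-fold as the limit, 649 genes were higher and 223 lower. The counting interval of the ratio excluded 1 for 88.3% of measured genes, and it lay wholly past 2-fold for 3355 of the higher and 1163 of the lower genes. In a bulk sample, fewer cells of a type and less RNA per cell cannot be told apart.

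The labels were first checked against markers. Of 12 naive pluripotency genes 11 were lower and 0 higher in EpiLCs, at a median log2 ratio of −3.43, and of 12 formative and primed genes 9 were higher and 1 lower, and the median was 1.58. Against DMSO-treated ESCs 11 of the 12 naive genes were also lower, at a median of −2.50. Of the 12 formative genes, however, 2 were higher and 3 lower against DMSO-treated ESCs, with a median of 0.54. Their sum was 308 TPM in ESCs, 898 in EpiLCs and 826 with DMSO, so the DMSO library held nearly the EpiLC sum of these formative markers. This did not hold for the naive list, which summed to 3237 TPM in ESCs, 436 in EpiLCs and 1912 with DMSO. The formative gene that was lower than in ESCs was *Foxd3*, a forkhead factor, at 40.5 TPM in ESCs and 9.06 in EpiLCs. Of 18 markers of fibroblasts, which serve as feeder cells, 12 were measured, 4 were higher and 5 lower, and the list summed to 83.0 TPM in ESCs, 426 in EpiLCs and 277 TPM in each treated ESC library. The 4 higher ones were *Tagln*, *Acta2*, *Mmp2* and *Dcn*. Leaving out the first 3 of these, a choice made after their values were seen, the other 15 summed to 49.4 TPM in ESCs, 17.0 in EpiLCs, 114 with DMSO and 112 with EED226, and 4 of the 15, *Twist2*, *Lum*, *Postn* and *Fap*, had no reads in EpiLCs. Of 16 genes of blood, endothelium and muscle, 6 were measured, 2 were higher and 2 lower, and the list summed to 72.6 TPM in ESCs and 92.1 in EpiLCs, most of it from the adhesion gene *Pecam1*.

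The ratios depended on gene length. Measured genes were ordered by length and divided into 10 classes of equal size. In the shortest class (up to 1032 bases in the table) the median log2 ratio of EpiLCs over ESCs was −0.14, and it stood higher in each following class, up to 1.01 in the longest (6225 bases or more). The gap between these ends was 1.15 on the log2 scale. Limits of 1.01 and 1.31 come from opposite ends of the 95% intervals of both medians, so they are wider than a 95% interval of the gap. They treat genes as independent and say nothing of the spread between cultures. Of the shortest class 20% were called higher and 21.6% lower, and of the longest class 50.4% and 4.51%. The share called lower was smaller in each following class, while the share called higher did not follow the order among the shorter ones. The median over all measured genes was 0.33, and genes called higher had a median length of 3399.5 bases against 2052 for those called lower.

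The trend was not particular to EpiLCs. DMSO-treated ESCs over ESCs had medians of −0.15 in the shortest and 0.59 in the longest class, EpiLCs over DMSO-treated ESCs 0.022 and 0.46, and EED226 over DMSO −0.03 and 0.24. These comparisons share libraries, so their values stand side by side and are not independent. Genomic span, introns included, went with the ratio within classes of gene length. Among short genes the median was −0.16 for those with a small span and 0.39 for those with a large one, and among long genes it was 0.44 and 0.87. It also stood higher for weakly expressed genes, at 0.67 in the lowest of 3 classes by level and 0.05 in the highest, although the gap between long and short genes was present in all 3. The part of RNA quality or library preparation in this trend was not tested.

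**Figure D1:**
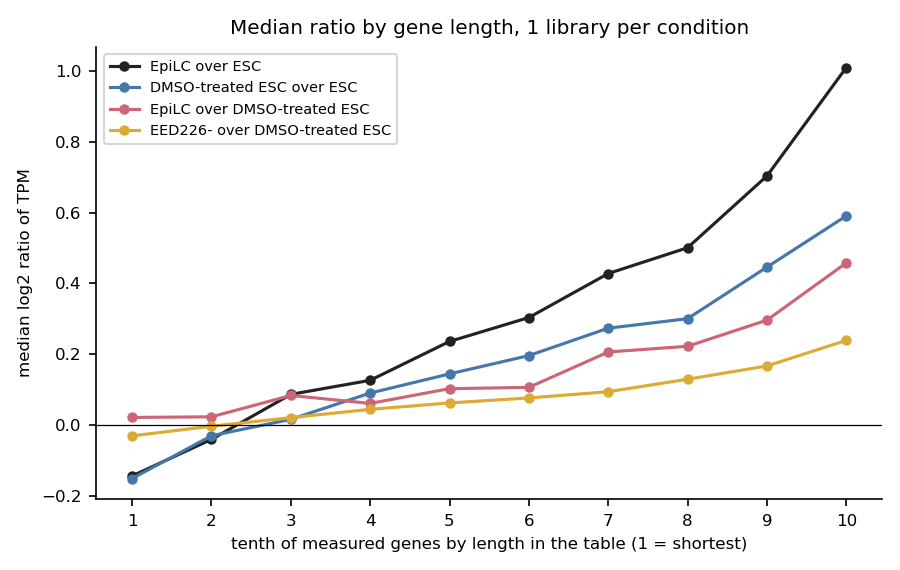
Median log2 ratio of TPM in 10 classes of the measured genes ordered by length (x axis, 1 is the shortest), for 4 pairs of libraries drawn as lines with 1 point per class. EpiLCs over ESCs runs from −0.14 to 1.01, DMSO-treated ESCs over ESCs from −0.15 to 0.59, and EED226 over DMSO from −0.03 to 0.24.

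Medians of programmes are therefore given as deposited and, for most, also after the median trend along length was subtracted. With the trend removed, 2876 genes (21.2%) were higher and 2098 (15.5%) lower, and 2831 of the 3946 higher genes and 1496 of the 1572 lower genes kept their call. Scaling by trimmed means (TMM) moved every log2 ratio by −0.35 and gave 3010 higher and 2379 lower genes, so the balance between both directions depends on the scaling. Programmes are therefore read against the median of all measured genes, 0.33. Counts of members called are read against the shares over all measured genes. These were 29.2% higher and 11.6% lower as deposited, and 21.2% and 15.5% with the trend removed. DMSO-treated ESCs served as a further reference. By the study's methods they had LIF, and the inhibitors PD0325901 and CHIR99021 are not named for their 48 h. By these methods the ESC references differ in more than DMSO, and the part of each difference was not tested. Over the 13442 genes with at least 1 TPM in EpiLCs or DMSO-treated ESCs, 19.2% were higher and 8.76% lower in EpiLCs. The DMSO level lay between those of ESCs and EpiLCs for 78.3% of the higher and 65.6% of the lower genes. These genes were selected for a wide gap between ESCs and EpiLCs, so a level between is in part set by that selection. In all, 74 gene lists were computed. Where strand was not used in counting, genes that overlap on opposite strands share reads. Besides the genes marked below, this holds for *Gabarapl1* (28.3% of exonic bases), *Ctsl* (26.8%), *Ccnd1* (23.4%), *Dusp5* (22.1%), *Msc* (21.2%) and *Dll1* (20.5%), and for a smaller share of others.

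**Figure D2:**
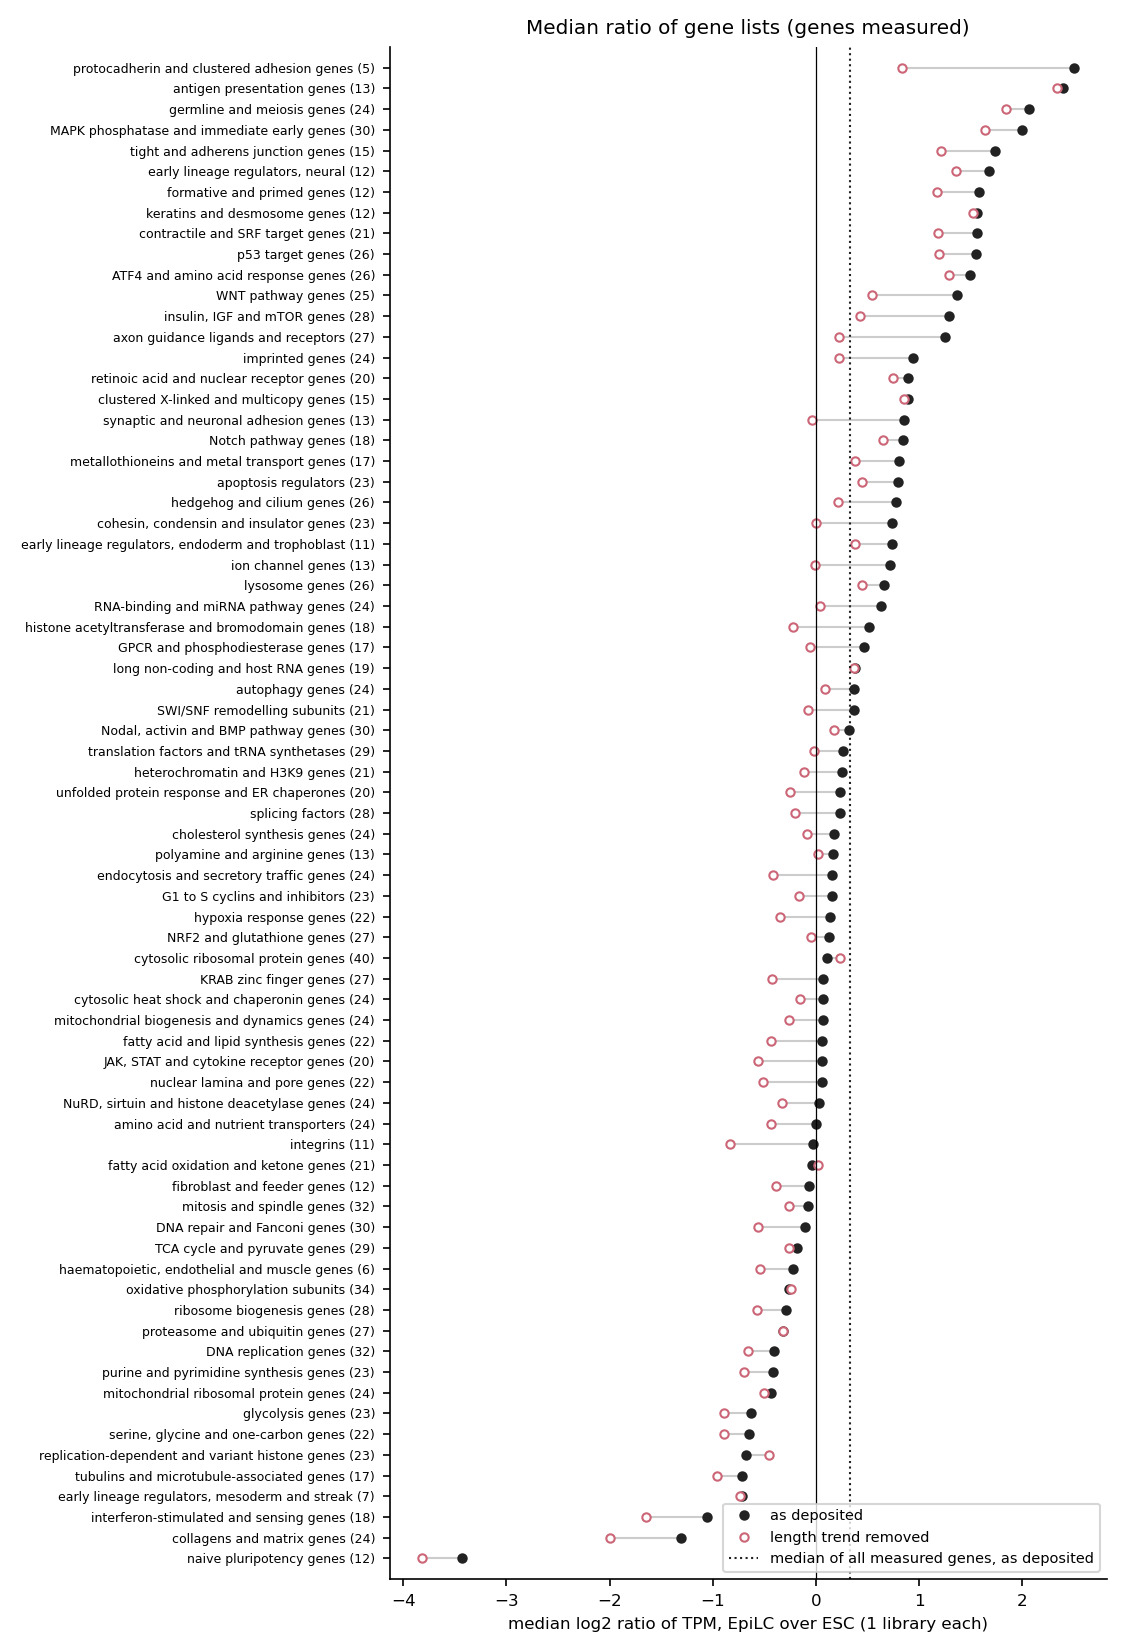
Median log2 ratio of TPM in EpiLCs over ESCs for the gene lists, with the number of measured members in brackets. Filled points are values as deposited, open points are values after the length trend was removed, and the dotted line marks 0.33, the median of all measured genes. The antigen presentation list stays above 2 in both forms, while the medians of the insulin, axon guidance and synaptic lists are 0.43, 0.22 and −0.04 once the trend is removed.

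Genes of the contractile cytoskeleton were higher in EpiLCs. Of 21 measured contractile and SRF target genes, 13 were higher and 0 lower, and the median log2 ratio was 1.56, or 1.18 with the length trend removed, and together they held 1361 TPM in ESCs and 3345 in EpiLCs. *Acta1*, skeletal muscle actin, was at 0.189 TPM in ESCs, 110.4 in EpiLCs, 7.74 with DMSO and 5.75 with EED226. *Actc1*, cardiac actin, was at 0.0917, 33.3, 1.06 and 1.65 TPM in the same order. Calponin 1, encoded by *Cnn1*, had 3.21, 107 and 14.9 TPM in ESCs, EpiLCs and DMSO-treated ESCs. EpiLCs were thus the highest library for all 3, and DMSO-treated ESCs were above ESCs. These 3 were picked for the highest ratios of EpiLCs over ESCs. That pick in part sets which library is highest or lowest, here and for the named genes below. The most abundant member, the tropomyosin gene *Tpm1*, was 4.93-fold higher in EpiLCs (4.78 to 5.08), at 71 and 350.1 TPM. *Acta2*, smooth muscle actin, was at 13.8 TPM in ESCs and 37.0 in EpiLCs but at 41.8 TPM with DMSO. Transgelin (*Tagln*), at 13.5 and 337 TPM, shares 67.9% of its exonic bases with genes of the opposite strand, so its reads are uncertain where strand was not used. Actin genes are also close in sequence, and reads they share may be split or lost. *Acta2* and *Tagln* are fibroblast markers too, the whole fibroblast list had the higher sum in EpiLCs given above, and its part in these levels was not tested.

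Promoters are shown for the contractile list because it holds genes known as SRF targets, so its share of SRF motifs is not independent of how it was made. The CArG box of SRF was searched in both orientations in RefSeq windows (GRCm38.p6) from 250 bases before to 50 after each start site, and the motifs here and below were chosen with the expression values known. It was present in 7 of 20 contractile promoters, against 1.64% of the promoters of measured genes and 1.81% of all promoters in the table. In the windows below, each printed on the gene's strand, capitals mark the box, and *Srf* and *Dusp5*, the latter from the immediate early list, each hold a pair. These genes were picked for the match after their values were seen, and a match is not evidence of binding.
Actc1, chr2:114052888-114052947, minus strand: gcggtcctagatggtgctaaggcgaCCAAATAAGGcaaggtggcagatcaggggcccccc
Myl9, chr2:156775278-156775337, plus strand: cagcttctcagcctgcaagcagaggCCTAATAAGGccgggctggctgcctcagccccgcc
Srf, chr17:46556210-46556269, minus strand: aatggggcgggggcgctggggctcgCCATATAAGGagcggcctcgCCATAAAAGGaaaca
Dusp5, chr19:53529038-53529097, plus strand: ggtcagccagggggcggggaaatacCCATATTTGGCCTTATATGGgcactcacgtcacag

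The myosin light chain gene *Myl9* was at 19.7 TPM in ESCs and 189.5 in EpiLCs, and *Srf* at 36.6 and 213 TPM. Both lay between these levels with DMSO, at 43.0 and 45.2 TPM.

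Immediate early genes and MAPK phosphatases formed another high group. Of 30 measured, 20 were higher and 3 lower, with a median of 2.00, or 1.64 with the trend removed. *Egr3*, a zinc finger factor, was at 0.0424 TPM in ESCs, 44.2 in EpiLCs, 0.383 with DMSO and 0.828 with EED226. *Egr2* was at 0.846, 54.2, 0.843 and 1.20 TPM, and *Egr1*, the most abundant member, at 117, 726, 61.1 and 63.3 TPM. The EpiLC library was the highest of the 4 for each of these Egr factors, and the DMSO library was not consistently above ESCs. *Dusp5*, a nuclear ERK phosphatase whose promoter is printed above, was 47.6-fold higher (38.4 to 59.6). *Egr4* and the phosphatase gene *Dusp8* were among the 15 genes with the highest ratios of all, at 0.121 and 37.4 TPM and at 0.132 and 25.6 TPM. Lower members were the G1 cyclin gene *Ccnd1*, at 99.7 TPM in ESCs, 26.6 in EpiLCs and 124 TPM with DMSO, the ETS factor gene *Etv4*, at 67.2, 19.5 and 85.7 TPM, and *Ier3*, at 15.0, 5.05 and 14.4 TPM. All 3 had EpiLCs as the lowest library. The CArG box was found in 2 of 21 promoters of this list.

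**Figure D3:**
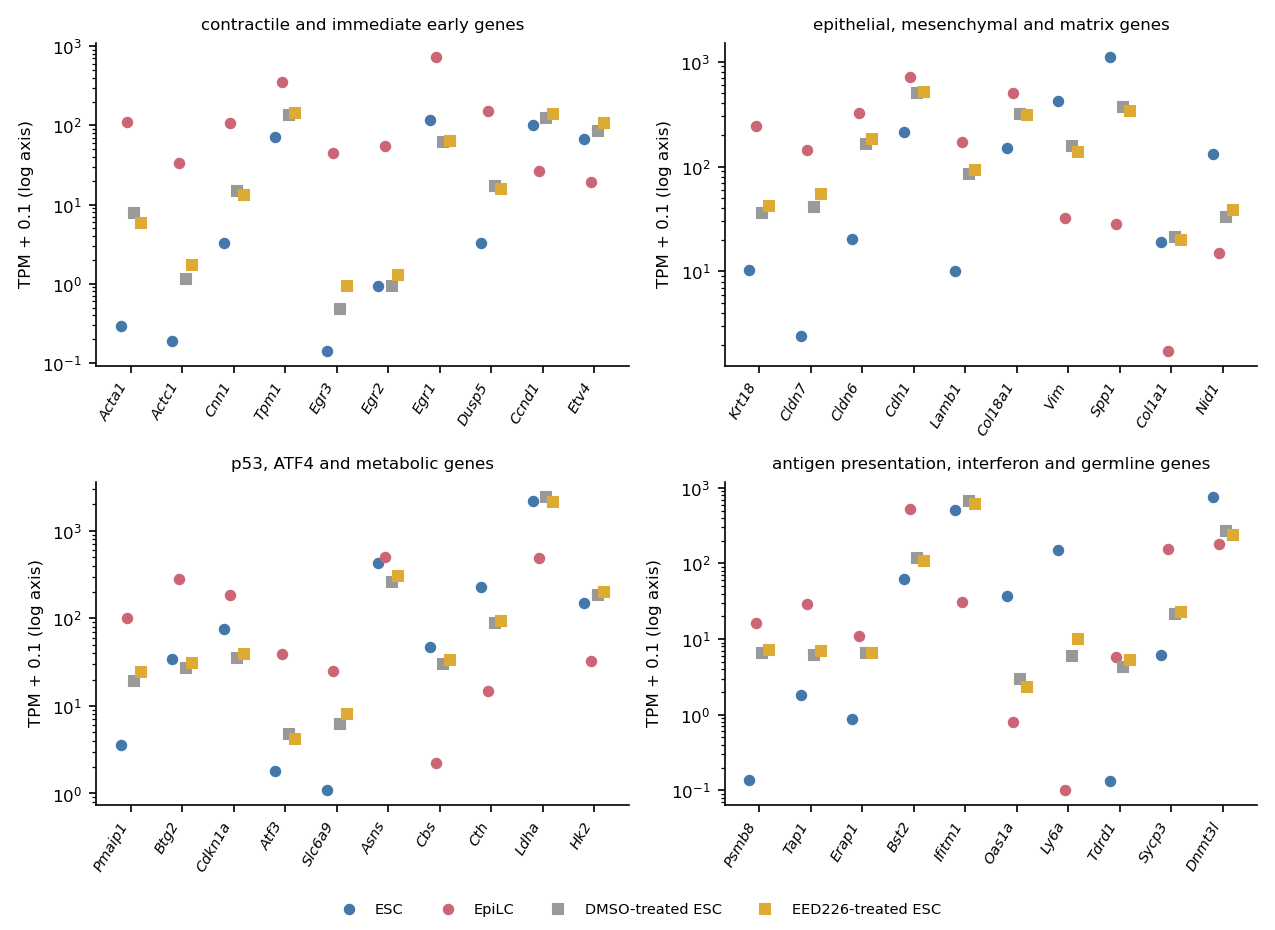
Level of single genes in the 4 libraries, as TPM with 0.1 added on a log axis. Circles are ESCs and EpiLCs, squares are ESCs treated with DMSO or EED226, and each point is 1 library. *Egr3*, *Cldn7* and *Psmb8* stand far higher in EpiLCs than in ESCs, *Ly6a*, *Spp1* and *Cbs* far lower, and the treated ESCs often lie between.

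Epithelial genes were higher. Of 12 measured keratin and desmosome genes 9 were higher and 2 lower, with a median of 1.57 that hardly moved with length (1.53). *Krt18*, a keratin of simple epithelia, was at 10.3 TPM in ESCs, 245 in EpiLCs, 35.6 with DMSO and 42.3 with EED226. *Dsc2*, a desmosomal cadherin, was at 0.298 and 7.27 TPM in ESCs and EpiLCs, and *Krt7* at 0.241 and 5.87 TPM. The lower members were the keratin gene *Krt42*, at 31.1 and 0.593 TPM, and *Jup*, plakoglobin, at 146 and 61.6 TPM. Against DMSO-treated ESCs, 5 of the 12 were higher, 2 were lower and the median was 0.11.

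Tight and adherens junction genes had 9 of 15 measured members higher and 1 lower, with a median of 1.74 (1.21 with the trend removed). Against DMSO-treated ESCs 5 of 16 were higher and 3 lower, with a median of 0.57. The list also holds cadherin genes other than *Cdh1*, and not all of its members are particular to epithelia. *Cldn7*, a claudin of tight junctions, was at 2.34 TPM in ESCs, 144 in EpiLCs, 41.0 with DMSO and 54.2 with EED226. *Cldn6* was at 20.1, 321, 162 and 182 TPM, and *Cldn3* at 1.95, 22.5, 5.13 and 7.84 TPM. *Cdh1*, E-cadherin, was the most abundant at 211 TPM in ESCs and 706 in EpiLCs, with 506 TPM in DMSO-treated ESCs. For all 4 the order was ESCs, DMSO-treated ESCs, EpiLCs. The lower member was *Vim*, vimentin of mesenchymal intermediate filaments, which is in the list as a counterpart, at 417, 32.1, 157 and 138 TPM. *Esrp1*, a splicing factor of epithelial cells, was at 3.39 TPM in ESCs and 86.0 in EpiLCs but already at 66.4 TPM with DMSO, and *Esrp2* was at 8.18, 19.6 and 18.5 TPM. Of 28 splicing factors 4 were higher and none lower, with a median of 0.23, or −0.20 with the trend removed.

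Listed matrix genes were mostly lower, but the collagen family as a whole was not. Of 24 measured collagens and matrix genes of the list 14 were lower and 5 higher, against 11.6% and 29.2% of all measured genes, and the median of −1.31 became −1.996 with the trend removed. Of all 29 measured collagen genes 14 were higher and 11 lower, with a median of 0.97, or 0.16 with the trend removed. *Nid1*, nidogen of basement membranes, was at 133 TPM in ESCs, 14.8 in EpiLCs, 32.9 with DMSO and 38.1 with EED226. *Col1a1*, a fibrillar collagen, was at 19.03, 1.65, 21.1 and 20.0 TPM, and *Col5a2* at 5.63, 0.733, 12.5 and 11.6 TPM. Both collagens are fibroblast genes, and the part of feeder cells in their levels was not tested. Higher members included genes of basement membranes. *Lamb1*, a laminin chain, was at 9.97, 171.5, 84.3 and 92.3 TPM, *Col18a1* at 150, 499, 315 and 310 TPM, and *Lama5* at 63.7, 183, 64.7 and 67.2 TPM, of which *Lama5* was at 0.12 on the log2 scale once the trend was removed. *Spp1*, the secreted matrix protein osteopontin, was at 1103 TPM in ESCs and 28.4 in EpiLCs, with 371 TPM in DMSO-treated ESCs, a ratio of 0.0258 (0.0239 to 0.0277).

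Integrins, the receptors for these matrix proteins, were called in both directions. Of 11 measured in the list 3 were higher and 2 lower, with a median of −0.03, but with the trend removed 1 was higher and 3 lower, with a median of −0.83. *Itga3*, a laminin receptor chain, was at 28.2 and 88.0 TPM and *Itgb1* at 122 and 270.2 TPM. *Itgb3* was at 5.55 TPM in ESCs and 0.884 in EpiLCs, near its 0.924 TPM with DMSO. The large cadherins *Fat1* (34.4 and 196 TPM) and *Pcdh1* (1.93 and 39.0 TPM) were higher, and 4 of 5 measured genes of that list were, with a median of 2.51 that was 0.84 with the trend removed.

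Tubulin genes were lower more often than higher. Of 17 measured tubulin and microtubule genes 7 were lower and 3 higher, with a median of −0.71, or −0.96 with the trend removed, and their sum was 6930 TPM in ESCs and 3812 in EpiLCs. *Stmn2*, a microtubule destabilizer of neurons, was at 301 TPM in ESCs, 22.1 in EpiLCs and 169.6 TPM with DMSO. The neuronal tubulin genes *Tubb3* and *Tubb2b* were at 153 and 20.5 TPM and at 538 and 118 TPM. *Tubb6* was higher, at 103 and 281 TPM, and *Map1b*, at 6.02 and 44.7 TPM, had 48.9 TPM with DMSO. Tubulin genes are close in sequence, so reads they share may be split or lost.

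p53 targets were higher while the p53 gene was not. Of 26 measured members of the list, which counts the p53 gene *Trp53* too, 19 were higher and 2 lower. The median was 1.56, or 1.20 with the trend removed. *Pmaip1*, which encodes the pro-apoptotic protein NOXA, was at 3.49 TPM in ESCs, 102 in EpiLCs, 19.02 with DMSO and 24.0 with EED226. *Btg2*, an antiproliferative gene, was at 33.9, 279, 27.3 and 30.8 TPM, and the death receptor gene *Tnfrsf10b* at 14.6, 99.7, 21.02 and 24.1 TPM. *Cdkn1a*, the p21 inhibitor of cyclin-dependent kinases, was at 76.1, 183.5, 35.6 and 39.2 TPM. EpiLCs were the highest library for each of these 4. *Trp53* itself was at 741 TPM in ESCs and 402 in EpiLCs. The lower targets were *Tigar*, a regulator of glycolysis, at 82.2 and 21.4 TPM, and *Sesn1*, a stress-induced sestrin, at 28.4 TPM in ESCs, 10.1 in EpiLCs and 7.26 TPM with DMSO.

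Apoptosis genes outside that list had 8 of 23 measured members (34.8%) higher and none lower, against 29.2% and 11.6% of all measured genes. Their median was 0.79 (0.44 with the trend removed). The initiator caspase gene *Casp8* was at 1.73 and 10.3 TPM. *Bcl2l11*, which encodes BIM, was at 3.81 TPM in ESCs and 15.7 in EpiLCs, but at 20.5 TPM with DMSO. *Mcl1*, an anti-apoptotic member, was at 266 and 484 TPM.

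Genes of the amino acid response were higher. The list holds the gene of the factor ATF4 and genes that answer to it. Of 26 measured, 17 were higher and 0 lower, and the median was 1.495, or 1.29 with the trend removed. *Atf3*, a bZIP factor, was at 1.72 TPM in ESCs, 39.6 in EpiLCs, 4.74 with DMSO and 4.07 with EED226. *Vldlr*, a lipoprotein receptor gene, was at 0.154, 5.32, 1.49 and 1.82 TPM, and *Slc6a9*, a glycine transporter gene, at 0.987, 24.7, 6.04 and 7.92 TPM. For *Slc6a9*, 30.2% of exonic bases overlap genes of the opposite strand. *Asns*, asparagine synthetase and the most abundant member, was at 431 and 508 TPM and was not called. Against DMSO-treated ESCs, 8 of 26 were higher and none lower, with a median of 0.55.

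The ATF4 element TGATGNAA, searched on both strands, lay in 8 of 24 promoters of this list, against 2.65% of the promoters of measured genes and 4.51% of all. The windows of 3 of them are printed, with the element in capitals, which in *Atf3* and *Vldlr* is read on the opposite strand. The list holds genes known to answer to ATF4, and the promoters were picked for the match.
Atf3, chr1:191183411-191183468, minus strand: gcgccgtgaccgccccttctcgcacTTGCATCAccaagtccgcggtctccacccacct
Vldlr, chr19:27216795-27216852, plus strand: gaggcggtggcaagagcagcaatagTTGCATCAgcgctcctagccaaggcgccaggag
Pycr1, chr11:120643819-120643876, minus strand: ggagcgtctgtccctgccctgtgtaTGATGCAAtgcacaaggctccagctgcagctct

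*Pycr1*, a proline synthesis gene chosen for this match after its values were seen, was at 14.2 TPM in ESCs, 39.5 in EpiLCs and 12.1 TPM with DMSO. The unfolded protein response, which shares ATF4 as 1 of its arms, was near the median of all genes: 3 of 20 members were higher and 1 lower, with a median of 0.24, and with the trend removed 1 was higher and 2 lower, with a median of −0.25. *Herpud1*, a factor of ER degradation, was at 22.1 and 66.8 TPM, and *Sdf2l1*, an ER chaperone cofactor, at 64.5 and 16.1 TPM.

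Serine, glycine and one-carbon genes split. Of 22 measured 3 were higher and 5 lower, with a median of −0.65, or −0.89 with the trend removed. The higher members make serine and feed folate: *Phgdh* was at 61.2 TPM in ESCs and 243 in EpiLCs, *Mthfd2* at 80.6 and 232 TPM, and *Psat1* at 156 and 410 TPM. With DMSO they were at 170.5, 175 and 446 TPM, so most of that difference was also present between the ESC libraries. All 3 are also counted in the ATF4 list. Lower members turn homocysteine and threonine over. *Cth*, cystathionine lyase, was at 231 TPM in ESCs, 14.9 in EpiLCs and 88.2 TPM with DMSO, and *Cbs*, cystathionine synthase, at 46.7, 2.12 and 30.0 TPM. *Tdh*, threonine dehydrogenase of mouse ESCs, was at 495, 65.5 and 670 TPM. *Bhmt*, betaine-homocysteine methyltransferase, was at 5.27 TPM in ESCs and had no reads in EpiLCs, which makes it at least 55.6-fold lower when 3 reads are taken as the floor of that library, but it was at 0.0548 TPM with DMSO.

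Glycolysis was lower as a group. None of 23 measured genes was higher and 7 were lower, with a median of −0.63, or −0.89 with the trend removed, and the sum was 17508 TPM in ESCs, 9216 in EpiLCs and 16348 TPM with DMSO. *Ldha*, lactate dehydrogenase, was at 2193, 493, 2457 and 2134 TPM in ESCs, EpiLCs, DMSO and EED226. *Hk2*, hexokinase 2, was at 151, 32.6, 187 and 198 TPM, and *Pfkp*, a phosphofructokinase, at 153, 33.0, 118 and 122 TPM. EpiLCs were the lowest library for these 3 genes, although 3 members of the list were higher than with DMSO and 8 lower. *Pkm*, pyruvate kinase, at 3529 and 1647 TPM, *Aldoa*, aldolase, at 2970 and 1381 TPM, and *Gapdh*, at 4211 and 2227 TPM, were among the 15 genes with the largest loss in TPM. *Slc2a1*, a glucose transporter, was at 362 and 323 TPM.

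Mitochondrial energy genes had smaller ratios. Of 34 listed subunits of oxidative phosphorylation none was higher and 3 were lower, with a median of −0.26, or −0.24 with the trend removed. Over whole families, 1 of 44 measured complex I genes was higher and 1 lower, and 2 of 17 cytochrome oxidase genes were higher and 5 lower. *Uqcrh*, of complex III, was at 630 and 160.2 TPM, and *Cox5a*, of complex IV, at 876 and 354 TPM. In the TCA cycle list none of 29 genes was higher and 3 were lower, with a median of −0.18, or −0.26 with the trend removed. *Idh1* and *Idh2*, isocitrate dehydrogenases, were at 261 and 73.8 TPM and at 299.9 and 137 TPM, but with DMSO at 68.1 and 73.1 TPM, so that their direction turned with that reference. Listed mitochondrial ribosomal proteins had 3 of 24 lower and none higher, with a median of −0.44, and the whole family had 6 of 77 lower and 1 higher, with a median of −0.43, among the lower ones *Mrps12* at 186 and 54.7 TPM.

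Genes of fat metabolism were called in both directions. Of 21 fatty acid oxidation genes 5 were higher and 4 lower, and of 22 lipid synthesis genes 7 and 4. With the trend removed the latter had 2 higher and 6 lower, and their median went from 0.06 to −0.44. *Cpt1a*, which brings fatty acids into mitochondria, was at 24.0 TPM in ESCs, 89.2 in EpiLCs and 10.2 TPM with DMSO, and *Plin2*, a lipid droplet coat gene, at 29.5, 85.6 and 14.6 TPM. *Acadm*, an acyl-CoA dehydrogenase, was lower at 230.1 and 63.1 TPM, and the desaturase genes *Scd1* and *Scd2* were at 78.3 and 26.4 TPM and at 308 and 117 TPM. Of 24 cholesterol synthesis genes 4 were higher and 2 lower, or 1 and 2 with the trend removed. *Srebf2*, the regulator of the pathway, was at 96.9 and 219 TPM.

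Antioxidant genes split by member, while metal genes were more often higher than lower. Of 27 NRF2 and glutathione genes 7 were higher and 6 lower, or 5 and 6 with the trend removed. *Gstm5* and *Srxn1*, a transferase and a sulfiredoxin, were at 3.83 and 46.2 TPM and at 13.7 and 64.2 TPM, while *Nqo1* and *Gstm1* were at 97.9 and 18.7 TPM and at 131 and 21.6 TPM. Of 17 measured metallothionein and metal transport genes 8 were higher and 2 lower, or 7 and 3 with the trend removed. The median was 0.81, then 0.375. Against DMSO-treated ESCs 1 was higher and 2 lower. *Slc40a1*, the iron exporter ferroportin, was at 0.252 TPM in ESCs, 17.4 in EpiLCs and 8.90 TPM with DMSO, and *Tfrc*, the transferrin receptor, at 180.3, 87.3 and 184 TPM. In the hypoxia list *Epas1*, HIF2α, was at 59.0 and 8.66 TPM and *Ddit4*, an mTOR inhibitor, at 47.2 and 174 TPM. *Hspb1*, a small heat shock protein, was at 1626 TPM in ESCs, 262 in EpiLCs and 404 TPM with DMSO.

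Few ribosomal protein genes were called. None of 40 measured cytosolic members of the list was 2-fold higher or lower, with a median of 0.11, and their summed level in EpiLCs was 1.10 times that in ESCs. Of all 99 measured entries of the family, paralogs and retrogenes included, 5 were higher and 6 lower, with a median of 0.09. *Eef2*, elongation factor 2, was at 3345 and 6034 TPM, and *Rpl4*, a protein of the large subunit, at 4500 and 7006 TPM, both among the 15 largest gains. *Rps29* and *Rpl41* were lower in value, at 5798 and 4419 TPM and at 5130 and 3727 TPM. Processed copies of these genes are many, so their counts are uncertain. Ribosome biogenesis genes had 4 of 28 members lower and none higher, with a median of −0.29, or −0.57 with the trend removed. *Nop16*, a nucleolar protein gene, was at 94.5, 28.0 and 141.5 TPM in ESCs, EpiLCs and DMSO-treated ESCs, and *Polr1b*, a subunit of RNA polymerase I, at 125, 55.9 and 127 TPM.

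Few genes of the replication and mitosis lists were called. Of 32 replication genes 3 were lower and none higher, with a median of −0.41, and of 32 mitosis genes 3 were higher and none lower, with a median of −0.08. *Rrm2*, a ribonucleotide reductase subunit, was at 447 and 222 TPM. The 3 higher mitosis genes, *Cenpf*, *Cenpe* and *Mki67*, encode large kinetochore and chromosome surface proteins, at 22.0 and 66.6, 19.11 and 57.3, and 43.7 and 124.5 TPM. With the length trend removed their log2 ratios were 0.22, 0.59 and 0.24, and none of the 32 genes was called higher. Of 23 genes of the G1 list 2 were higher and 5 lower, or 2 and 6 with the trend removed. The median went from 0.16 to −0.17. Against DMSO-treated ESCs 5 of the 23 were higher and 9 lower. In this list *Rb1*, the retinoblastoma gene, was at 5.14 TPM in ESCs and 24.1 in EpiLCs, and *Ccnd3*, a D-type cyclin, at 305.5 and 102.5 TPM.

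Histone genes of the replication-dependent clusters were lower in value. Of 35 measured cluster genes 21 were lower and 1 was higher, with a median of −1.18. With the trend removed 16 were lower and 1 higher, with a median of −0.88. Levels were low, at a sum of 107 TPM in ESCs and 49.0 in EpiLCs. Some of these genes met the limit of 1 TPM only through ESCs, which favours a lower call. Against DMSO-treated ESCs only 19 were measured, 1 higher and 5 lower, with a median of −0.015, so both medians cover different genes. These transcripts mostly lack a poly(A) tail, so a library of polyadenylated RNA counts only part of them. *Hist1h1c*, linker histone H1.2, was at 17.2 TPM in ESCs, 1.08 in EpiLCs and 5.09 TPM with DMSO. Among variants, *H2afy2*, macroH2A2, was at 27.5, 88.5 and 16.7 TPM, and *H3f3b*, which encodes H3.3, at 518, 1109 and 579 TPM.

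Of 21 heterochromatin genes 3 were higher and 4 lower, with a median of 0.25, but with the trend removed 1 was higher and 8 lower, with a median of −0.12, and against DMSO-treated ESCs the median was −0.14. The lower ones include repressors of retroelements. *Trim28*, the corepressor of KRAB zinc finger proteins, was at 2726 TPM in ESCs, 996 in EpiLCs, 1874 with DMSO and 1737 with EED226, so that the ratio was 0.365 (0.362 to 0.369). *Zfp57*, a KRAB zinc finger gene of imprinted loci, was at 343, 38.4, 195 and 163 TPM, and *Morc1* at 152.5, 51.3, 52.2 and 33.9 TPM. The H3K9 methyltransferase gene *Suv39h1* was higher, at 4.16 TPM in ESCs, 43.5 in EpiLCs and 30.8 TPM with DMSO. The medians of large chromatin regulators fell once length was accounted for: histone acetyltransferase and bromodomain genes had 5 of 18 higher and a median of 0.51, which was −0.22 with the trend removed, and SWI/SNF subunits had 5 of 21 higher and a median of 0.37, then −0.08. *Ep300* and *Crebbp*, acetyltransferases, were at 28.9 and 102 TPM and at 8.66 and 29.3 TPM, and *Arid2*, a SWI/SNF subunit, at 10.4 and 48.6 TPM. Cohesin and insulator genes behaved likewise (0.74, then 0.00), and the members with the highest ratios in both forms were germline genes, *Smc1b* at 1.19 and 34.9 TPM, *Rec8* at 9.58 and 91.8 TPM, and *Ctcfl* at 0.370 and 5.30 TPM.

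Germline and meiosis genes were among the highest lists. Of 24 measured 19 were higher and 2 lower, with a median of 2.06, or 1.84 with the trend removed, and against DMSO-treated ESCs 15 were higher with a median of 1.76. *Tdrd1*, a tudor protein of the piRNA pathway, was at 0.0312 TPM in ESCs and 5.69 in EpiLCs, but at 4.22 TPM with DMSO. *Taf7l*, a germ cell TFIID subunit, was at 1.03, 20.7, 1.91 and 2.09 TPM. *Sycp3*, of the synaptonemal complex, was at 6.06, 156, 21.2 and 22.6 TPM, and *Chpt1*, on the other strand, covers 52.2% of its exonic bases. *Stra8*, the retinoic acid target that marks meiotic entry, was at 1.75, 18.7, 0.624 and 0.771 TPM. The lower members were *Dnmt3l*, a cofactor of DNA methylation, at 765, 181, 272 and 237 TPM, and the retrogene *Rpl10l*, at 347, 108.1, 92.3 and 69.5 TPM. Because the lower *Dnmt3l* and *Rpl10l* are abundant, the summed level of the list went from 1421 TPM in ESCs to 1130 TPM in EpiLCs.

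Promoters of this list were searched for the E-box CACGTG, which factors that silence germline genes in ESCs are known to bind, and which reads the same on both strands. It was found in 13 of 21 of them, against 12.1% of the promoters of measured genes and 8.09% of all, and the capitals below mark it in 3 promoters chosen after values were seen.
Sycp3, chr10:88459498-88459553, plus strand: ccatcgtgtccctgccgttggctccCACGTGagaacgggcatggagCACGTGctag
Tdrd1, chr19:56826173-56826228, plus strand: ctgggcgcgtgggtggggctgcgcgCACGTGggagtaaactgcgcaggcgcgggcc
Taf7l, chrX:134476509-134476564, minus strand: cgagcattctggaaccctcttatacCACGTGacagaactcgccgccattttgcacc

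Genes of early embryos were among the 15 lowest ratios. Of 15 measured X-linked and multicopy genes, however, 7 were higher and 3 lower, with a median of 0.90. With a limit of 5 TPM that median was −0.08, and the sum of the list went from 270 TPM in ESCs to 156 in EpiLCs. Against DMSO-treated ESCs 10 of 13 were higher and none lower. *Khdc3*, of the subcortical maternal complex, was at 211 TPM in ESCs, 0.505 in EpiLCs, 8.45 with DMSO and 9.46 with EED226. *Pramel7*, which in mouse ESCs is known to promote hypomethylation, was at 84.2, 0.211, 0.611 and 0.341 TPM, and *Pramel6* at 33.8, 0.128, 0.516 and 0.285 TPM. For *Pramel7* and *Pramel6* the ESC library stood apart from the other 3. Members of these families are near-identical, so their counts are uncertain. *Xlr3a*, an X-linked multicopy gene, was higher at 13.99 TPM in ESCs and 40.1 in EpiLCs, with 0.690 TPM under DMSO.

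Antigen presentation and interferon genes went in different directions. Of 13 measured antigen presentation genes 8 were higher and 0 lower, and the median was 2.39, or 2.34 with the trend removed, and against DMSO-treated ESCs 7 of 13 were higher with a median of 1.08. *Psmb8*, a subunit of the immunoproteasome, was at 0.0348 TPM in ESCs, from a single read, 16.2 TPM in EpiLCs, 6.36 with DMSO and 6.98 with EED226, and the interval of its ratio ran from 83.2 to 18510. *Tap1*, the peptide transporter, was at 1.70, 29.3, 6.03 and 6.88 TPM, and *Erap1*, which trims peptides, at 0.784, 10.8, 6.41 and 6.39 TPM. Summed over the list the level went from 1679 to 1424 TPM, because *Calr*, the most abundant member, was at 1553 and 1071 TPM.

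Of 18 measured interferon-stimulated genes 9 were lower and 5 higher, with a median of −1.06, or −1.64 with the trend removed. *Ifitm1*, an interferon-induced membrane protein of germ cell precursors, was at 511 TPM in ESCs, 30.8 in EpiLCs, 678 with DMSO and 618 with EED226, and *Ifitm3* at 533, 94.9, 905 and 744 TPM. *Oas1a*, an RNA sensor, was at 36.9, 0.694, 2.83 and 2.196 TPM. *Bst2*, tetherin, was higher at 62.7, 526, 119 and 109 TPM, and so was *Cxcl10*, a chemokine, at 0.232, 49.8, 0.619 and 0.621 TPM. *Ly6a*, which encodes SCA1, an interferon-responsive surface antigen, was at 148.5 TPM in ESCs, had no reads in EpiLCs and was at 5.89 TPM with DMSO, which makes it at least 757-fold lower in EpiLCs. The EpiLC library was the lowest for *Ifitm1*, *Ifitm3*, *Oas1a* and *Ly6a* and the highest for *Bst2* and *Cxcl10*.

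Signalling lists differed in how far their medians moved when the length trend was removed. The insulin, IGF and mTOR list had 16 of 28 higher and none lower, and its median of 1.30 was 0.43 with the trend removed, when 9 were higher and 2 lower. *Irs2*, an insulin receptor substrate, was at 4.29 and 48.9 TPM. WNT genes had 15 of 25 higher and 5 lower, with a median of 1.37, then 0.54, but against DMSO-treated ESCs 5 of 28 were higher and 7 lower. The receptor gene *Fzd7* was at 15.2, 126 and 91.0 TPM in ESCs, EpiLCs and DMSO-treated ESCs. *Notum*, a secreted WNT inhibitor and WNT target, was at 88.3, 1.52 and 32.3 TPM, and 38.1% of its exonic bases overlap genes on the other strand. *Sfrp1*, another secreted inhibitor, was at 67.7, 17.6 and 25.7 TPM.

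In the Nodal, activin and BMP list 9 of 30 genes were higher and 10 lower, or 5 and 13 with the trend removed. As deposited these were 30% and 33.3%, against 29.2% and 11.6% of all measured genes. Nodal feedback and targets were divided: *Lefty1*, a Nodal inhibitor, was at 94.7 TPM in ESCs, 614 in EpiLCs, 93.1 with DMSO and 152 with EED226, while *Tdgf1*, the Nodal coreceptor Cripto, was at 641, 109.3, 737 and 737 TPM. *Bmp4* was at 30.8 and 2.53 TPM, its target *Id3* at 70.2 and 9.49 TPM and *Bmp7* at 1.55 and 16.2 TPM. The Notch list had 8 of 18 higher and 1 lower, with a median of 0.85. With the trend removed 4 were higher and 3 lower, with a median of 0.65. These counts are near the shares of all measured genes with the trend removed, 21.2% and 15.5%. The sum of the list went from 278 to 709 TPM. *Notch3* was at 8.27, 172, 22.1 and 28.9 TPM, the ligand gene *Dll1* at 3.57, 47.3, 3.11 and 2.23 TPM, and the target *Hes5* at 0.0334, 13.6, 0.625 and 0.613 TPM. EpiLCs were the highest library for receptor, ligand and target, although 31.8% of the exonic bases of *Hes5* overlap a gene on the other strand and its ESC level is a single read (ratio interval 72.4 to 16140).

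JAK and STAT genes had 5 of 20 higher and 6 lower, or 4 and 7 with the trend removed. The feedback inhibitor *Socs3*, a STAT3 target, was at 46.9 TPM in ESCs, 3.97 in EpiLCs and 86.8 TPM with DMSO, *Bcl3* at 54.7, 3.68 and 56.8 TPM, and the receptor gene *Lifr* at 20.6, 4.07 and 16.7 TPM. *Lif* itself was higher, at 4.75, 25.1 and 2.68 TPM, and so was *Jak2*, at 2.38, 10.0 and 1.83 TPM. EpiLCs were at 1 end of the range for all 5, which is partly set because they were picked for their ratios of EpiLCs over ESCs.

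Axon guidance genes had 15 of 27 higher and 4 lower with a median of 1.25, which was 0.22 with the trend removed. *Epha1*, an Eph receptor, was at 1.17 and 30.1 TPM and *Sema3e*, a semaphorin, at 0.254 and 7.24 TPM, both with similar levels in DMSO-treated ESCs (24.1 and 8.34 TPM). *Epha4* was at 34.4, 1.17 and 17.7 TPM, *Nrp2* at 6.15, 0.298 and 22.6 TPM and the ligand gene *Ntn1* at 7.90, 0.594 and 33.7 TPM. Neural lineage regulators had 8 of 12 measured members higher and 2 lower, but against DMSO-treated ESCs 2 and 2. *Nes*, nestin, was at 15.3, 93.4 and 43.7 TPM and *Sox11* at 1.68, 11.5 and 13.2 TPM. Only 7 of 20 mesoderm and streak regulators reached 1 TPM, and 1 was higher and 3 lower. Endoderm and trophoblast regulators had 5 of 11 higher and 2 lower, with a median of 0.74, or 0.38 with the trend removed. Of these *Cubn*, cubilin, was at 0.0863, 9.48 and 0.296 TPM and *Dab2*, its adaptor, at 2.04, 17.3 and 3.29 TPM. The lower members were the trophoblast factor genes *Tead4*, at 12.1, 2.54 and 8.46 TPM, and *Gata3*, at 5.71, 1.18 and 0.477 TPM.

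Lysosome genes had 9 of 26 (34.6%) higher and none lower, against 29.2% and 11.6% of all measured genes. Their median was 0.66 (0.45 with the trend removed, and 0.65 against DMSO). *Ctsl*, a cathepsin, was at 144, 447, 177 and 181 TPM in ESCs, EpiLCs, DMSO and EED226, and *Lamp2*, a membrane protein, at 15.1, 47.7, 15.2 and 16.1 TPM. For autophagy 5 of 24 were higher and 5 lower, or 5 and 6 with the trend removed. The ATG8 family genes *Gabarapl1* and *Gabarapl2* went opposite ways, at 12.97 and 51.7 TPM and at 452 and 50.01 TPM, and so did the kinases *Ulk2* (0.504 and 11.8 TPM) and *Ulk1* (132 and 41.3 TPM).

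Imprinted genes had 12 of 24 higher and 2 lower, with a median of 0.94, or 0.22 with the trend removed. Against DMSO-treated ESCs 6 of 25 were higher and 4 lower, and the median turned to −0.20. *H19*, a maternally expressed RNA, was at 3.34, 45.2, 17.0 and 35.4 TPM in ESCs, EpiLCs, DMSO and EED226, and *Meg3* at 14.5, 83.5, 31.3 and 32.9 TPM. *Phlda2* was at 9.57 and 107 TPM but at 197 TPM with DMSO, and *Plagl1* at 30 and 4.38 TPM but at 3.90 TPM with DMSO, so both turned direction with that reference.

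Outside the lists, *Car4*, a membrane carbonic anhydrase, had the highest log2 ratio once 0.1 TPM was added, among genes at 10 TPM or more (8.73). It was at 0.425 TPM in ESCs, 223 in EpiLCs, 23.1 with DMSO and 22.6 with EED226, and the ratio without the addition was 525 (307 to 987), below those of *Egr3* (1041) and *Acta1* (583). *Car4* lies on chromosome 11, 84957754 to 84966054, of GRCm38. *Cda*, cytidine deaminase, was without reads in ESCs but reached 16.8 TPM in EpiLCs, where it was at least 106-fold higher. *Mcoln3*, a lysosomal channel gene, was at 0.0745 and 19.6 TPM. *Msc*, a bHLH repressor, was at 39.0 and 0.191 TPM, and *Jam2*, a junctional adhesion molecule, at 131 and 2.04 TPM. *Calcoco2*, an autophagy receptor, was at 493 TPM in ESCs, 6.39 in EpiLCs and 11.9 TPM with DMSO, so that it was low in each of the libraries other than ESCs. *Tgm1*, a transglutaminase of epithelia, was at 107, 1.31 and 27.0 TPM.

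By chromosome, autosomal medians lay between 0.16 and 0.63, and between −0.13 and 0.24 with the length trend removed. Chromosome 12 was the highest autosome (477 genes, 0.63, then 0.24), and the X chromosome stood at 0.66 (506 genes), then 0.29. Against DMSO-treated ESCs these were 0.27 and 0.24, within the 0.0096 to 0.34 of the other autosomes. On the Y chromosome 8 genes were measured, 6 were higher and none lower, with a median of 2.05. They were looked at after the chromosome medians were seen. *Kdm5d*, a histone demethylase gene, was at 0.551 TPM in ESCs, 15.0 in EpiLCs, 0.166 with DMSO and 0.205 with EED226, and *Zfy1*, a zinc finger gene, at 0.763, 15.9, 0.183 and 0.175 TPM. *Eif2s3y*, a translation factor gene, was at 165, 178, 119 and 116 TPM and *Ddx3y*, a helicase gene, at 39.4, 60.9, 29.2 and 28.9 TPM. All 4 libraries thus held Y-linked transcripts, with the highest level in EpiLCs.

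**Figure D4:**
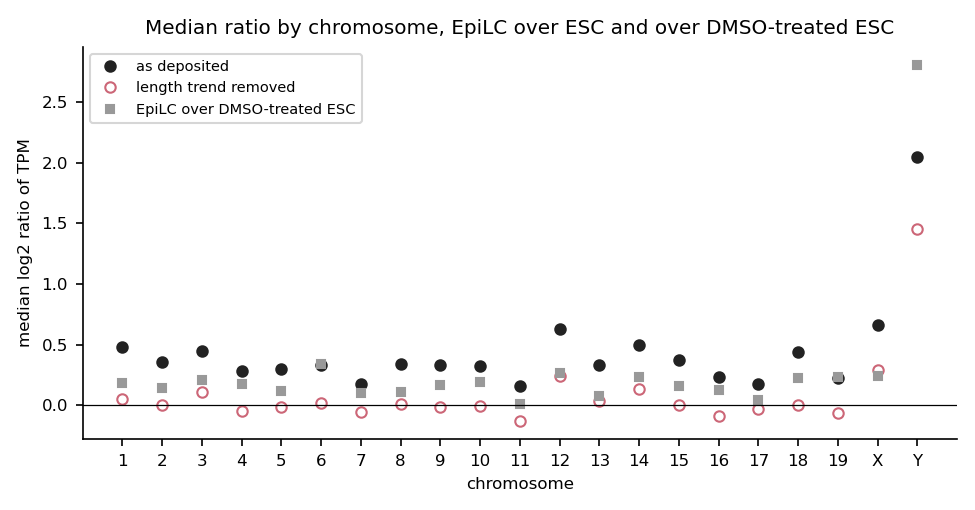
Median log2 ratio of TPM over the measured genes of each chromosome. Filled circles are EpiLCs over ESCs, open circles the same with the length trend removed, and squares EpiLCs over DMSO-treated ESCs. The Y chromosome, with 8 genes, stands at 2.05, and the X chromosome and chromosome 12 are the next highest as deposited.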

How the data were processed

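Libraries came from a stranded kit for polyadenylated RNA, read from 1 end over 100 bases. Software named in the submitters' notes is STAR 2.6.0a, Bowtie2 2.2.4, featureCounts 1.6.2 and bcl2fastq 2.20, with mm10 as the build. The use of strand in counting was not given in the sources used here. Per gene and library, the authors deposited a raw read count, a signal (reads divided by gene length) and TPM, which sums to 1000000 in each library. TPM was used as deposited, and 2 entries sharing a symbol were left out. The plan had assumed TPM alone. Counts gave the exact binomial intervals and a floor of 3 reads, and no count test was run with 1 library per condition.

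The members, the 74 lists and the rules were chosen with earlier results of these data known. Of 1729 listed genes, 1719 matched by symbol, 10 by RefSeq synonym, and 1539 were measured. From each list, up to 3 members with the highest and 3 with the lowest ratio were named among those called with at least 5 TPM, with the most abundant one. Over all genes, the 15 highest and 15 lowest ratios at 10 TPM or more, the 15 largest gains and losses in TPM, and the 10 most abundant of each library could be named. *Twist2*, *Lum*, *Postn*, *Fap* and *Dcn*, the members named beside a promoter (*Myl9*, *Srf*, *Pycr1*) and the Y-linked genes fall outside it and were chosen after their values were seen. The length trend was the median log2 ratio in 20 bins of gene length, joined by straight lines. Alternatives covered filters, added TPM, thresholds, scaling, the length trend and DMSO-treated ESCs as reference. TMM factors were from edgeR 4.0.16 in R 4.3.3. Other steps ran in Python 3.11.15 with scipy 1.17.1, pandas 2.3.3, numpy 2.4.6 and matplotlib 3.10.9, and were tested on simulated data. Positions and exon overlaps are those of GRCm38, to which mm10 corresponds. A few results, including 1 gene list, are not reported here.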

Additional observations from a re-analysis of the deposited data

How the results depend on the processing

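A 4-fold threshold left 1836 genes higher and 588 lower, and a 1.5-fold threshold gave 2601 lower genes. TMM factors gave 2379 lower genes and median-of-ratios factors, which moved every log2 ratio by −0.37, gave 2460. Against DMSO-treated ESCs 2584 genes were higher, and the gap between the longest and the shortest length class was 0.46 on the log2 scale in place of 1.15. The other alternatives kept both counts and the gap within 1.5 times. Of the 74 list medians, 24 changed sign when the length trend was removed, 20 when ratios were centred on the median gene, 16 with the DMSO reference and 7 with a limit of 5 TPM, and none of those of at least 1 in size did. With DMSO-treated ESCs as reference, 13 named genes that were called turned direction. Their log2 ratios were then −0.17 for *Acta2*, −0.38 for *Bcl2l11*, 1.15 for *Gata3*, 0.12 for *Idh1*, 0.91 for *Idh2*, −0.13 for *Map1b*, −0.89 for *Phlda2*, 0.17 for *Plagl1*, −0.12 for *Psat1*, 0.23 for *Rpl10l*, −0.20 for *Sema3e*, 0.46 for *Sesn1* and −0.20 for *Sox11*. The cause was not tested. No paired analysis was possible because each condition has a single library, and for the same reason no library could be left out. Below about 1 TPM a ratio rests on few reads, and the spread between cultures is not known for any value.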
